A study of Mus musculus with 14 samples.

Results

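The genes described here are 42 cytosolic and mitochondrial chaperones and co-chaperones outside the HSP70 family itself, measured in duodenal mucosa of mice after a meal. They were taken as a named list and looked up in the annotation of the array by current or older symbol, and each gene was read from its brightest probe set that the annotation ties to a single gene. Of the 42 genes, 39 were found this way, among 18193 genes in all. The 3 others were Hsp90ab1, Ppid and Ptges3. Hsp90ab1 was not named by the annotation used here, and Ppid and Ptges3 were named only on probe sets shared with other genes. The list falls into 6 classes: HSP90 and its co-chaperones (7 of 10 genes measured), HSP70 cofactors (8 of 8), mitochondrial chaperones (5 of 5), small heat shock proteins (2 of 2), cytosolic J-domain proteins (9 of 9) and subunits of the CCT chaperonin (8 of 8).

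The study asked how the duodenum responds to the fat content of a meal. All mice were male C57BL6, given as 12 wk old, fed the low-fat (LF) diet for 2 wk and then fasted for 12 h. The 7 groups were mice offered a high-fat (HF) meal with 60% of calories from fat and killed 30 min, 1 h or 3 h from its start, mice given a LF meal with 10% of calories from fat and killed at the same times, and mice killed without a meal (fasting). Each group was 1 pool of scraped mucosa RNA from 20 mice, hybridised to 2 Affymetrix mouse expression arrays, which gives 14 arrays. Both arrays of a group carried the same pooled RNA, so every SE, interval and p-value below covers array error and not the spread between mice. Fed mice ate freely until they were killed. In pooled tissue a change in RNA per cell and a change in the number of cells of a type cannot be told apart.

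As background, HSP90 is an abundant cytosolic chaperone that completes the folding of kinases, steroid receptors and other clients in a cycle of ATP hydrolysis set by its co-chaperones. HSP70 binds unfolded stretches, J-domain proteins bring it clients and start its ATPase, and nucleotide exchange factors of the BAG family and Hspbp1 release them. CCT is a ring-shaped chaperonin that folds actin and tubulin, and Hspd1 with its lid Hspe1 forms the chaperonin of the mitochondrial matrix. Many of these genes carry heat shock elements, repeats of GAA and its complement TTC in alternating orientation, which bind heat shock factors.

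The promoter windows of the members were searched for such repeats, and the part of these in any change was not tested. Windows of 300 bases, from 250 before to 50 after the annotated start, were matched by symbol in RefSeq (GRCm38.p6) for 33 members. A pair of adjoining units, GAANNTTC or TTCNNGAA, each its own reverse complement and so searched on both strands at once, was in a window of 14 of the 33 (42.4%), against 17.0% of 27025 genes. At least 3 alternating units spaced 2 bases apart were in a window of 4 members (12.1%), against 0.662% of genes. These 4 were Chordc1, Hspe1, Hspd1 and Dnajb6. In the lines that follow, capitals mark the run of units and the sequence reads in the direction of the gene. Chordc1, with 5 units that span the annotated start, lies at chr9:18292260-18292289 on the plus strand. Hspe1, with 4 units ending 72 bases before its start, lies at chr1:55088034-55088101 on the plus strand, and Hspd1, transcribed the other way, shares 285 bases of window with it. The units are the same on both strands, so the Hspe1 line also stands for Hspd1, where they end 127 bases before the start. Dnaja1 (chr4:40722319-40722376, plus strand) and Fkbp4 (chr6:128438775-128438832, minus strand) hold a single pair of units. Dnajb6 (chr5:29735827-29735889, plus strand) holds 3 units.
Chordc1: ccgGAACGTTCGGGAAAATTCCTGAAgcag
Hspe1: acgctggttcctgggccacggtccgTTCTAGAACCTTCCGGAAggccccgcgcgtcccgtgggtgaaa
Dnaja1: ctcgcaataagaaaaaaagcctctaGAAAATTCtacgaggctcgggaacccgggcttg
Fkbp4: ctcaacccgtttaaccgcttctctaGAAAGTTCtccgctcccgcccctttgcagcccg
Dnajb6: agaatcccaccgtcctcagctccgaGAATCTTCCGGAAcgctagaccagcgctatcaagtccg
Of the members called higher than fasting at any time, all but Hsp90aa1, which had no window here, could be searched. A pair of units was held by 6 of these 13 (46.2%), namely Chordc1, Hspe1, Hspd1, Dnaja1, Fkbp4 and Bag3. So did 8 of 19 measured members with a window that were never called against fasting (42.1%). The run of 3 or more units was in 3 of those 13 genes (23.1%) and in 1 of those 19 (5.26%), the last being Dnajb6. Hspe1 and Hspd1 count separately here although they share 1 stretch. The shares with a pair of units lay close together in the members that were and were not called, and no match in a window says only that these letters are not in it.

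The values are log2 intensities. Values of the paired arrays correlated at 0.9958 to 0.9971 over all probe sets, and the array medians ran from 4.47 to 4.55. The difference between 3' and 5' probe sets of beta-actin, a measure of RNA quality, was lowest in the 3 h pools. It was 0.398 at LF 3 h, 0.429 at HF 3 h and between 0.47 and 0.525 in the other pools. For Gapdh it was lowest at LF 3 h (-0.0327), highest in fasting (0.0811) and 0.0147 at HF 3 h. The part of RNA quality in the member values was not tested. The 13 enterocyte markers looked up for the tissue label had a mean log2 level of 12.36 to 12.45 in the 7 pools. Pancreatic acinar markers were about as bright, with a mean of 12.61 in fasting against 12.4, so brightness alone does not bear out the label. No enterocyte marker was under 6, the level below which a probe set is called dim here. By this level 5 members were dim in every pool (Hspbp1, Bag2, Cryab, Hspb8 and Dnaja4), and 34 reached it in at least 1 pool. Transcripts of neighbouring tissues moved between pools. Markers of pancreatic acinar cells had a mean level of 11.83 at HF 30 min and of 13.29 at LF 1 h, the lowest and highest pools, and markers of stomach and Brunner gland one of 5.739 at LF 3 h and 8.591 at HF 30 min. Against fasting, 10 of 11 acinar markers were higher at HF 3 h (median log2 fold change 0.57), and 2 of 11 were lower and none higher at LF 3 h (median -0.24). At 1 h 9 of 11 were higher after the HF meal (median 0.48) and 10 of 11 after the LF meal (median 0.64). Of the 10 markers of stomach and Brunner gland, 1 was higher at HF 1 h (median 0.12) and 5 at HF 3 h (median 0.67), while 6 were higher at LF 1 h (median 0.82) and 3 lower at LF 3 h (median -0.19). Adipocyte markers were higher for 3 of 8 at HF 3 h (median 0.20, highest 1.01) and 1 of 8 at LF 3 h (median -0.10). What these transcripts add to the member values was not tested.

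After a meal part of the chaperone list rose, and no member was called lower than fasting. With limma's moderated test and Benjamini-Hochberg adjustment over all probe sets, at an adjusted p under 0.05, no member was called 30 min after the HF meal, 3 were higher at 1 h and 11 at 3 h. The shares of all genes called higher were 0.759%, 0.649% and 2.97% at these times, and the shares called lower were 0.363%, 0.357% and 3.7%. After the LF meal 0, 5 and 13 of the 39 members were higher at 30 min, 1 h and 3 h, against 0.335%, 1.18% and 3.13% of all genes higher and 0.066%, 0.368% and 2.28% lower. At an unadjusted p under 0.05, 9, 16 and 17 members were higher after the HF meal and 4, 15 and 18 after the LF meal, and 0, 1 and 2 were lower after the HF meal and 0, 0 and 1 after the LF meal. The HF and LF comparisons share the 2 fasting arrays. Over the 7 pools, limma's F test called 12 of the 39 members, against 9.76% of all genes. The list was chosen with earlier results of these data known, so the shares of all genes are given as description only. In all, 14 members were called higher at least once and 25 never were.

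The counts differed across the classes, with no test of a class. At 3 h it took in 5 of 7 genes of HSP90 and its co-chaperones after the HF meal and 6 of 7 after the LF meal. In the same order of meals it took in 2 and 1 of 8 HSP70 cofactors, 1 and 2 of 5 mitochondrial chaperones, 2 and 2 of 9 cytosolic J-domain proteins, 1 and 2 of 8 CCT subunits and neither small heat shock protein. The median log2 fold change of the HSP90 class was 0.16 at 30 min, 0.28 at 1 h and 0.53 at 3 h after the HF meal, and 0.11, 0.39 and 0.58 after the LF meal. At HF 30 min the mitochondrial and CCT medians were also 0.16, and those of the J-domain and HSP70 cofactor classes 0.10 and 0.00. At LF 30 min the mitochondrial and CCT medians were 0.00 and 0.04. At 1 h these 2 medians were 0.18 and 0.12 after HF and 0.16 and 0.12 after LF. At 1 h the median of the 2 small heat shock proteins, both dim, was 0.24 after HF and 0.26 after LF. The medians of the classes other than HSP90 at 3 h lay between 0.04 and 0.12 after the HF meal and between -0.09 and 0.18 after the LF meal. Over all genes they were -0.003 and -0.024. Acinar, stomach and Brunner gland, and adipocyte markers also moved at 3 h, as given above. Their part in the class medians was not tested.

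**Figure D1:**
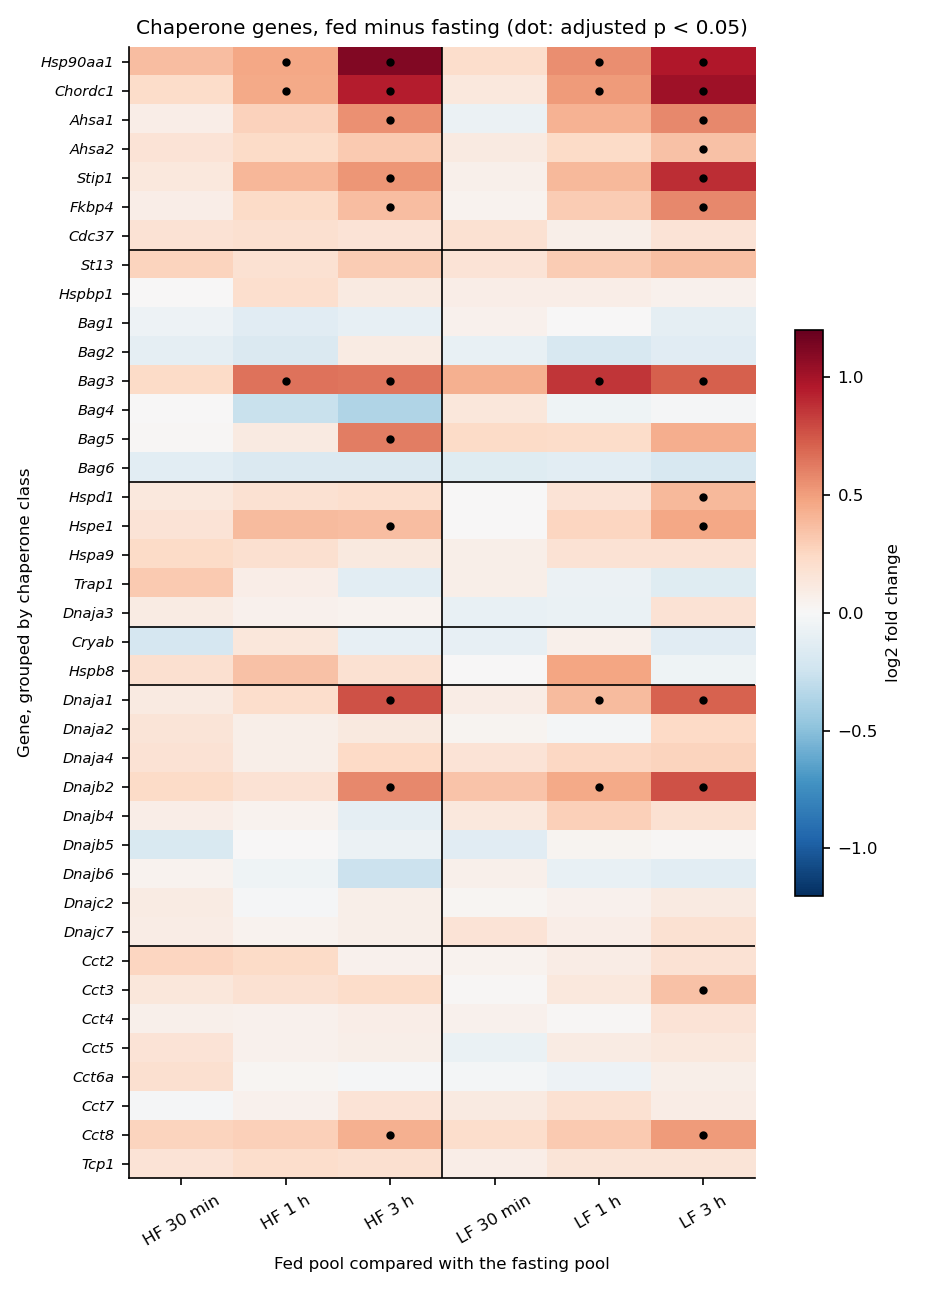
Log2 fold change of the 39 measured members (rows, grouped by class in the order of the text) in each fed pool against the fasting pool (columns, HF left and LF right). Dots mark an adjusted p under 0.05 by limma: 0, 3 and 11 after the HF meal and 0, 5 and 13 after the LF meal, all of them higher, with the deepest colours in Hsp90aa1 and Chordc1 at 3 h.

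**Figure D2:**
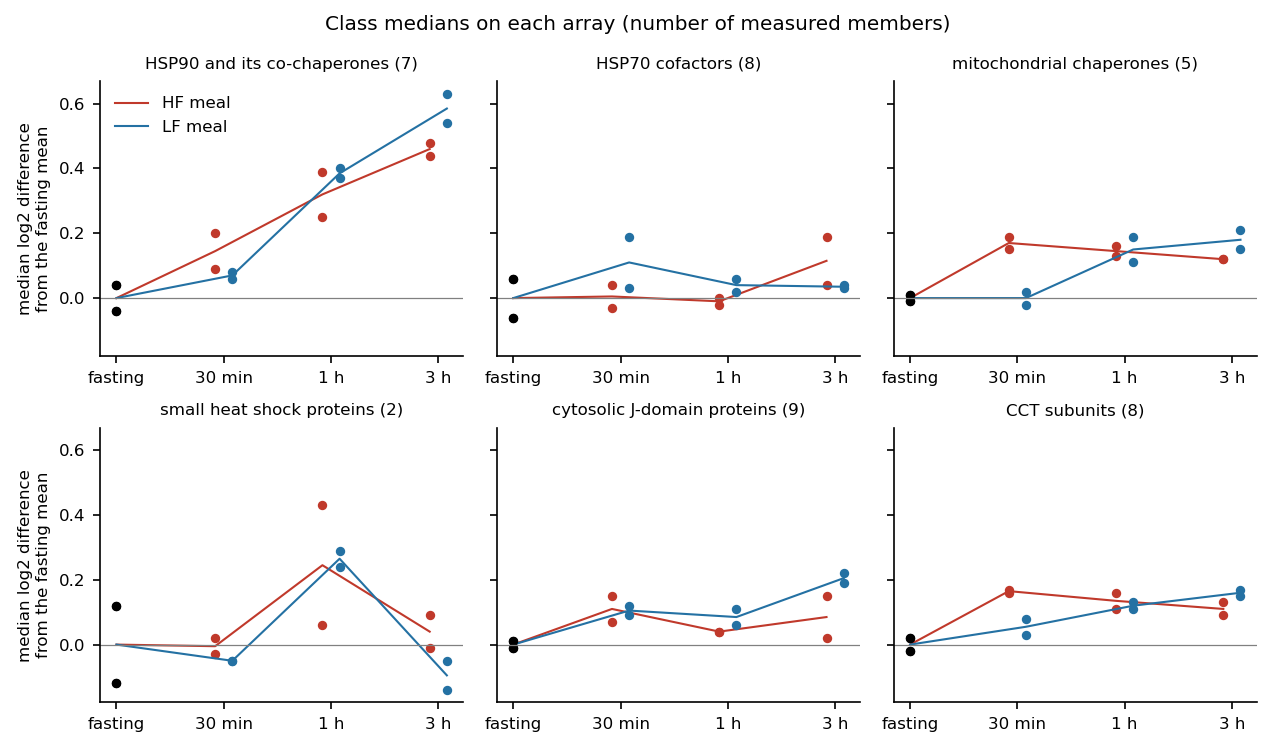
Median over the measured members of each class of the log2 difference from the fasting mean, on each array (points, 2 per pool) with the line through the pool means, against time after the meal began. The HSP90 class reached 0.44 and 0.48 on the HF 3 h arrays and 0.54 and 0.63 on the LF 3 h arrays. No array of the HSP70 cofactors, mitochondrial, J-domain or CCT classes lay above 0.22. The small heat shock proteins, both dim, stood at 0.06 and 0.43 on the HF 1 h arrays and 0.24 and 0.29 on the LF 1 h arrays.

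These counts depend on single arrays, since each pool has only 2. When each of the 14 arrays was left out in turn, Hsp90aa1, Chordc1, Bag3 and Dnaja1 were called in all 14 fits at HF 3 h, and the same genes with Stip1, Fkbp4 and Dnajb2 at LF 3 h. At 1 h Bag3 after the LF meal was the only call that held in all 14. Without fasting replicate 1 the counts were 0 at HF 1 h, 4 at HF 3 h, 1 at LF 1 h and 7 at LF 3 h. At HF 3 h they were 7 without HF 3 h replicate 1 and 6 without replicate 2, and at LF 3 h 7 without LF 3 h replicate 2. At HF 1 h the count was 0 without HF 1 h replicate 2 and 1 without HF 1 h replicate 1, fasting replicate 2 or either HF 30 min array, and at LF 1 h it was 1 without LF 1 h replicate 1 and 3 without LF 1 h replicate 2 or fasting replicate 2.

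Hsp90aa1, the stress-inducible cytosolic HSP90, rose at 1 h and at 3 h after both meals. Its values were 9.11 and 9.27 on the fasting arrays, and after the HF meal 9.57 and 9.55 at 30 min, 9.73 and 9.58 at 1 h, and 10.32 and 10.27 at 3 h. After the LF meal they were 9.33 and 9.46 at 30 min, 9.81 and 9.68 at 1 h, and 10.16 and 10.15 at 3 h. Each fed array lay above both fasting arrays, and the 3 h arrays stood apart from all others. The log2 fold change against fasting was 0.46 ± 0.093 (SE) at HF 1 h (adjusted p 0.03) and 1.11 ± 0.093 at HF 3 h (adjusted p 6.8e-06), a 2.16-fold change. The LF meal gave 0.56 ± 0.093 at 1 h (adjusted p 0.0056) and 0.96 ± 0.093 at 3 h (adjusted p 4.5e-05), 1.95-fold. At 30 min the differences, 0.37 after HF and 0.21 after LF, were not called on this probe set (adjusted p 0.089 and 0.62). Another bright probe set of the gene, with a mean of 9.197, was higher already at 30 min (0.44 after HF, adjusted p 0.027, and 0.49 after LF, adjusted p 0.021) and reached 1.38 at HF 3 h and 1.25 at LF 3 h. The other bright set (mean 9.262) gave 1.18 at HF 3 h and 1.14 at LF 3 h. The 2 remaining sets were dim, with means of 3.87 and 2.961, and gave at most 0.17.

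Chordc1, a CHORD-domain co-chaperone of HSP90, was called in the same 4 comparisons. It read 8.17 and 8.25 in fasting, 8.41 and 8.45 at 30 min, 8.67 and 8.64 at 1 h, and 9.19 and 9.11 at 3 h after the HF meal. The LF arrays gave 8.21 and 8.48 at 30 min, 8.79 and 8.66 at 1 h, and 9.22 and 9.25 at 3 h. From 1 h on, no fed array overlapped the fasting arrays, whereas at LF 30 min the lower array fell between them. The fold changes were 0.45 ± 0.097 at HF 1 h (adjusted p 0.049), 0.94 ± 0.097 at HF 3 h (adjusted p 4.9e-05), 0.51 ± 0.097 at LF 1 h (adjusted p 0.014) and 1.02 ± 0.097 at LF 3 h (adjusted p 4e-05) on the log2 scale. The HF 1 h call held in 2 of 14 fits with an array left out, and was lost also without arrays of other pools. Chordc1 reached 2.03-fold at LF 3 h, and any part of its 5 promoter units in this was not tested.

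Stip1, the adaptor (HOP) that joins HSP70 to HSP90, rose at 3 h. Its values were 6.17 and 6.26 in fasting, and 6.28 and 6.42 at 30 min, 6.54 and 6.69 at 1 h, and 6.65 and 6.83 at 3 h after the HF meal. The LF meal gave 6.27 and 6.27 at 30 min, 6.59 and 6.61 at 1 h, and 7.01 and 7.18 at 3 h. The LF 3 h arrays were the highest and did not overlap the HF 3 h arrays. Stip1 rose by 0.53 ± 0.099 at HF 3 h (adjusted p 0.0056) and 0.89 ± 0.099 at LF 3 h (adjusted p 0.00017). The 1 h values of 0.40 after HF and 0.39 after LF were not called (adjusted p 0.087 and 0.084).

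The other co-chaperones of HSP90 rose less than Stip1 at LF 3 h, and Ahsa1 rose about as much as Stip1 at HF 3 h. Ahsa1, the activator of the HSP90 ATPase, rose by 0.55 at HF 3 h and 0.58 at LF 3 h (adjusted p 0.0065 and 0.0061). Fkbp4, an immunophilin of steroid receptor complexes, rose by 0.37 and 0.58 (adjusted p 0.024 and 0.0016). A second, dim probe set of each gave other courses, with 0.79 for Ahsa1 at LF 30 min (mean level 5.194, adjusted p 0.012) and 0.10 and 0.11 for Fkbp4 at HF 3 h and LF 3 h (mean level 5.137). Ahsa2, a relative of Ahsa1, was 0.31 at HF 3 h, not called (adjusted p 0.065), and rose by 0.35 at LF 3 h (adjusted p 0.038), a call lost when either array of the LF 3 h or fasting pool was left out. Cdc37, which delivers kinases to HSP90, was called nowhere, with fold changes between 0.07 and 0.19.

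Among the HSP70 cofactors, Bag3, a nucleotide exchange factor that directs clients to autophagy, rose at 1 h and at 3 h after both meals. It read 7.02 and 7.25 in fasting, and 7.47 and 7.25 at 30 min, 7.72 and 7.85 at 1 h, and 7.81 and 7.74 at 3 h after the HF meal. The corresponding LF values were 7.52 and 7.60 at 30 min, 8.003 and 7.98 at 1 h, and 7.80 and 7.90 at 3 h. Every fed array was above both fasting arrays, 1 HF 30 min array only just (7.252 against 7.246), and the highest pair was LF 1 h. The log2 fold change was 0.65 ± 0.1 at HF 1 h and 0.64 ± 0.1 at HF 3 h (adjusted p 0.0063 and 0.0018), and 0.86 ± 0.1 at LF 1 h and 0.72 ± 0.1 at LF 3 h (adjusted p 0.00034 and 0.0012). After the LF meal the 1 h value was thus the larger, by a difference that was not tested. At 30 min it stood at 0.23 after HF and 0.43 after LF (adjusted p 0.38 and 0.13), and the LF value passed the test once dim probe sets had been left out (adjusted p 0.023).

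Bag5, another BAG-domain exchange factor, rose at HF 3 h only among the 6 comparisons with fasting. Its values were 5.91 and 6.01 in fasting, and 5.79 and 6.15 at 30 min, 6.10 and 6.05 at 1 h, and 6.40 and 6.74 at 3 h after the HF meal. LF arrays read 6.13 and 6.26 at 30 min, 6.20 and 6.16 at 1 h, and 6.34 and 6.46 at 3 h. The fasting and HF 30 min means lay just under the dim level of 6. The HF pools of 30 min and of 3 h had the arrays farthest apart (SD 0.25 and 0.24), and the lower HF 3 h array lay within the range of the LF 3 h arrays. Against fasting this gave 0.61 ± 0.13 at HF 3 h (adjusted p 0.012) and 0.44 ± 0.13 at LF 3 h, not called (adjusted p 0.071). The HF call was lost without HF 3 h replicate 2 or either fasting array (highest adjusted p 0.13).

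The remaining cofactors were not called against fasting. St13, the HSP70-interacting protein HIP, came nearest among the higher ones, at 0.30 after HF and 0.36 after LF at 3 h (adjusted p 0.16 and 0.091), and its second probe set was higher at both, by 0.46 and 0.49 (adjusted p 0.012 and 0.0097). Bag4, a regulator of death receptor signalling as well as an HSP70 partner, stood at -0.36 at HF 3 h (adjusted p 0.053) and -0.01 at LF 3 h. Bag1, an exchange factor of HSP70, and Bag6, a factor of membrane protein targeting, stayed between -0.19 and 0.05 in the 6 comparisons. Hspbp1 and Bag2 had a mean log2 level under 6 in every pool, and their fold changes lay between -0.19 and 0.20.

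Both parts of the matrix chaperonin of the mitochondria rose, Hspe1 after both meals and Hspd1 after the LF meal. Hspe1, the lid (HSP10), read 8.93 and 8.96 in fasting, 9.06 and 9.15 at 30 min, 9.23 and 9.42 at 1 h, and 9.30 and 9.32 at 3 h after the HF meal. The LF arrays read 8.97 and 8.92 at 30 min, 9.29 and 9.12 at 1 h, and 9.43 and 9.37 at 3 h. The LF 30 min arrays lay about the fasting values, and every later LF array and every HF array was above them. Hspe1 rose by 0.37 ± 0.092 at HF 3 h and 0.46 ± 0.092 at LF 3 h (adjusted p 0.031 and 0.011), and a second probe set of the gene gave 0.42 and 0.44.

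Hspd1, the ring (HSP60), read 9.03 and 9.10 in fasting, and 9.26 and 9.14 at 30 min, 9.30 and 9.20 at 1 h, and 9.33 and 9.21 at 3 h after the HF meal. On the LF meal it read 9.07 and 9.06 at 30 min, 9.28 and 9.18 at 1 h, and 9.45 and 9.47 at 3 h. The LF 3 h pair was the highest, while the HF arrays of the 3 times overlapped each other. Hspd1 rose by 0.39 ± 0.086 at LF 3 h (adjusted p 0.018), whereas 0.20 at HF 3 h was not called (adjusted p 0.23). The difference between the meals at 3 h, -0.19 with a 95% interval of -0.38 to -0.00, was not called (adjusted p 0.32). The calls of Hspe1 and Hspd1 at 3 h were lost when either array of the compared pools was left out. Hspa9, the mitochondrial HSP70, Trap1, the mitochondrial HSP90, and Dnaja3, a mitochondrial J-domain protein, were not called against fasting, with fold changes from -0.15 (Trap1, LF 3 h) to 0.31 (Trap1, HF 30 min).

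The small heat shock proteins Cryab and Hspb8, which hold unfolded proteins without ATP, were dim in every pool, with mean log2 values of 3.501 and 4.491 over the 14 arrays. Neither was called in a comparison with fasting. The largest value was 0.47 for Hspb8 at LF 1 h (adjusted p 0.16), beside 0.35 at HF 1 h (adjusted p 0.34), and at 3 h Hspb8 stood at 0.18 after HF and -0.05 after LF. At this brightness a small change may not have been detectable.

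Of the J-domain proteins of the cytosol, Dnaja1, an abundant partner of HSP70, rose at 3 h after both meals and at 1 h after the LF meal. It read 10.75 and 10.78 in fasting, and 10.91 and 10.84 at 30 min, 10.99 and 10.95 at 1 h, and 11.58 and 11.48 at 3 h after the HF meal. After the LF meal it read 10.82 and 10.89 at 30 min, 11.14 and 11.15 at 1 h, and 11.46 and 11.48 at 3 h. At every time the fed arrays were above fasting, and the 3 h arrays of both meals lay above every array of the earlier times. The log2 fold change was 0.76 ± 0.08 at HF 3 h (adjusted p 5.6e-05), 0.38 ± 0.08 at LF 1 h (adjusted p 0.029) and 0.71 ± 0.08 at LF 3 h (adjusted p 0.00018). At HF 1 h it was 0.21 and not called (adjusted p 0.3). Both other probe sets of the gene rose at 3 h, by 0.52 and 0.59 after HF and by 0.36 and 0.50 after LF.

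Dnajb2, a J-domain protein that binds ubiquitinated clients, was dimmer, with a fasting mean under 6, and its fasting arrays lay far apart. It read 5.44 and 5.77 in fasting, and 5.88 and 5.79 at 30 min, 5.81 and 5.74 at 1 h, and 6.15 and 6.21 at 3 h after the HF meal. After the LF meal it read 5.91 and 5.98 at 30 min, 6.10 and 6.003 at 1 h, and 6.36 and 6.37 at 3 h. One HF 1 h array lay below the higher fasting array, and the 3 h arrays of each meal lay above all fasting arrays. Dnajb2 rose by 0.58 ± 0.1 at HF 3 h (adjusted p 0.0038) and 0.76 ± 0.1 at LF 3 h (adjusted p 0.0008). At LF 1 h it was 0.45 ± 0.1 with an adjusted p that rounds to 0.05, and this call held in 1 of 14 fits with an array left out. The HF 3 h call was lost without fasting replicate 1 (adjusted p 0.059).

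The other J-domain members were not called against fasting on the probe sets used: Dnaja2, Dnaja4, Dnajb4, Dnajb5, Dnajb6, the ribosome-associated Dnajc2 and the TPR protein Dnajc7. Their fold changes ran from -0.26 (Dnajb6, HF 3 h, adjusted p 0.083) to 0.29 (Dnajb4, LF 1 h, adjusted p 0.23). A second, dim set of Dnajb4 (mean level 5.016) stood at -0.04 at HF 3 h and rose by 0.56 at LF 3 h (adjusted p 0.016). Likewise a dim set of Dnaja4 (mean level 4.13) rose by 0.42 at HF 3 h (adjusted p 0.012) and stood at 0.21 at LF 3 h. Dnajb6, which keeps aggregation-prone proteins soluble, holds 3 units in its window and stood at -0.13 at LF 3 h.

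Of the 8 subunits of the CCT ring, 6 were called in no comparison with fasting. Cct8, the theta subunit, rose at 3 h after both meals. It read 7.27 and 7.40 in fasting, and 7.64 and 7.58 at 30 min, 7.62 and 7.64 at 1 h, and 7.80 and 7.74 at 3 h after the HF meal. Values on the LF meal were 7.58 and 7.52 at 30 min, 7.72 and 7.58 at 1 h, and 7.75 and 7.95 at 3 h. All 12 fed arrays lay above both fasting arrays. Cct8 rose by 0.43 ± 0.094 at HF 3 h (adjusted p 0.014) and 0.51 ± 0.094 at LF 3 h (adjusted p 0.006), the HF call being lost without fasting replicate 1 or either HF 3 h array, and the LF call without fasting replicate 1 or LF 3 h replicate 2.

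Cct3, the gamma subunit, read 8.39 and 8.46 in fasting, and 8.53 and 8.59 at 30 min, 8.58 and 8.63 at 1 h, and 8.60 and 8.69 at 3 h after the HF meal. LF-fed pools gave 8.46 and 8.40 at 30 min, 8.51 and 8.59 at 1 h, and 8.76 and 8.78 at 3 h. The LF 3 h pair was above every other array. Cct3 rose by 0.35 ± 0.081 at LF 3 h (adjusted p 0.025), and 0.22 at HF 3 h was not called (adjusted p 0.15). Its probe set can share targets with near-identical sequences. With such sets left out the gene was read from a dim set (mean 5.012) and stood at -0.03 at LF 3 h. The 3 other sets of the gene over 6 gave 0.26 to 0.37 there. The LF 3 h call was lost without either array of the LF 3 h or fasting pool. The 6 other subunits, Cct2, Cct4, Cct5, Cct6a, Cct7 and Tcp1, were not called and stood between -0.01 and 0.19 at HF 3 h and between 0.07 and 0.17 at LF 3 h. Cct2 at HF 30 min, 0.26 here (adjusted p 0.22), passed the test once dim probe sets had been left out (adjusted p 0.038).

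**Figure D3:**
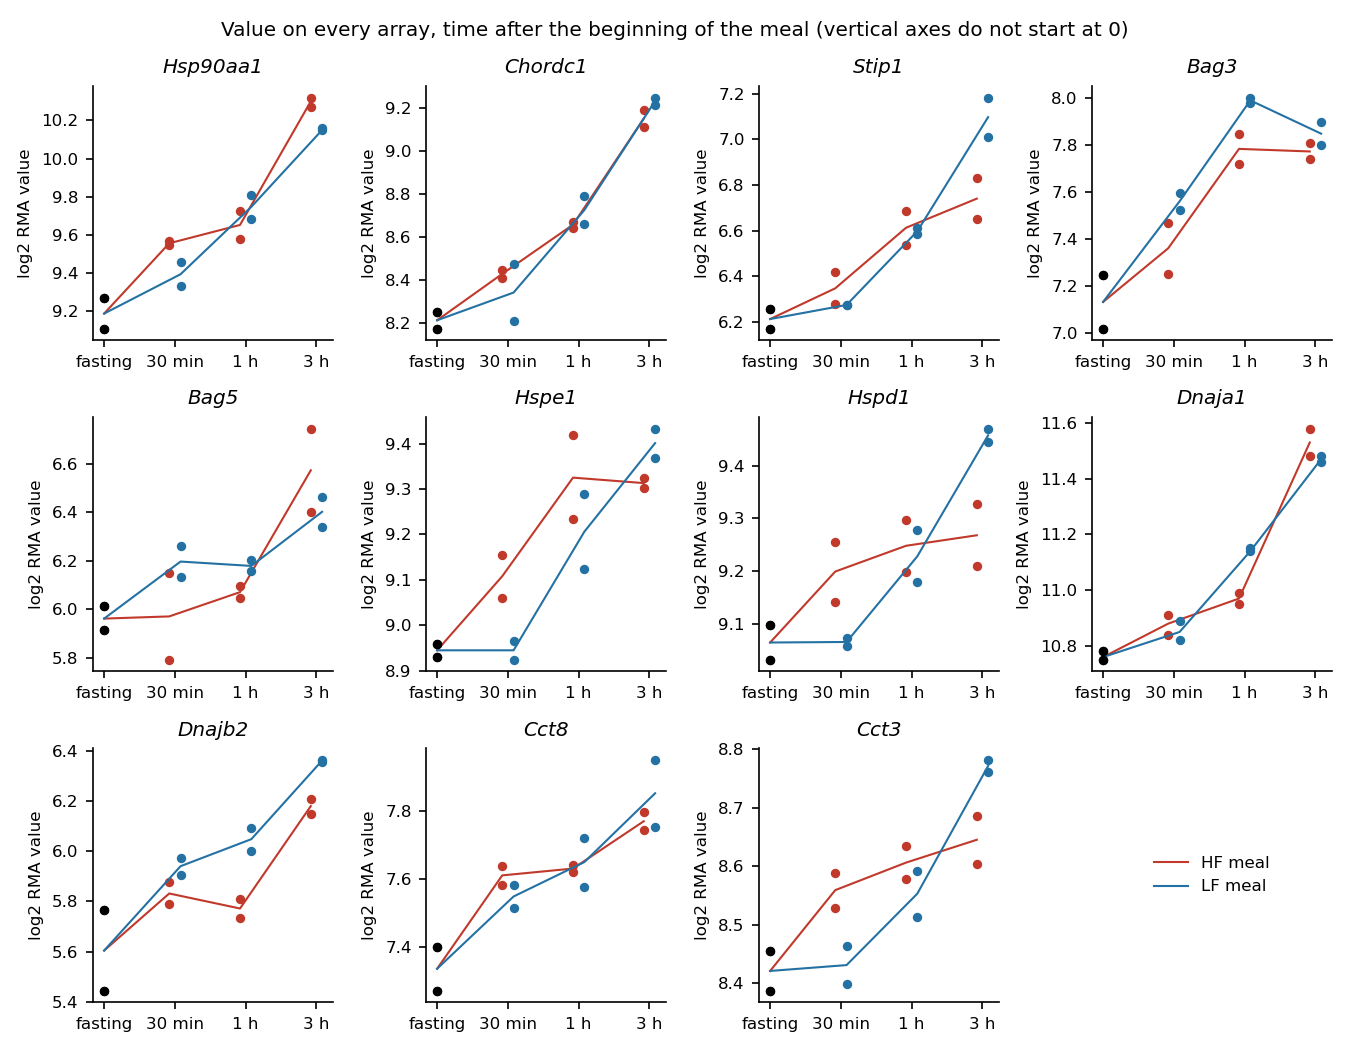
Log2 value on every array (points, 2 per pool, fasting in black) of the 11 members described array by array, against time after the meal began, with lines through the pool means for the HF and the LF meal. Hsp90aa1, Chordc1 and Dnaja1 had their highest values at 3 h after both meals, Bag3 had its highest pair at LF 1 h, and the fasting arrays of Dnajb2 and Bag3 lay farther apart than those of Dnaja1.

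Between the meals, no member differed at the same time by limma's test. The HF minus LF difference was called for 0 of 39 members at 30 min (0.297% of all genes higher and 0.253% lower in the HF pool), at 1 h (0.066% and 0.159%) and at 3 h (1.19% and 1.01%). At an unadjusted p under 0.05, 4 members were higher and 0 lower at 30 min, 0 higher and 3 lower at 1 h, and 0 higher and 5 lower at 3 h. The differences ran from -0.23 to 0.24 at 30 min, from -0.28 to 0.14 at 1 h and from -0.36 to 0.24 at 3 h, and the 95% intervals of all members together reached from -0.57 to 0.53 at 3 h, with a median width to either side of 0.20. Differences of about this width or smaller may have been missed with these arrays.

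At 3 h the members farthest from 0 were lower after the HF meal. Stip1 averaged 6.74 at HF 3 h and 7.098 at LF 3 h, a difference of -0.36 (95% interval -0.57 to -0.15, adjusted p 0.092). Bag4, picked after its values were seen, averaged 7.956 at HF 3 h and 8.308 at LF 3 h, a difference of -0.35 (-0.57 to -0.13, adjusted p 0.11). In the fit without dim probe sets Stip1, Bag4 and Dnajb4 passed the test (adjusted p 0.017, 0.022 and 0.047). For the genes called after a single meal at 3 h, the difference between meals was 0.17 for Bag5, -0.04 for Ahsa2, -0.19 for Hspd1 and -0.13 for Cct3, none of them called (lowest adjusted p 0.32). Between the same pools 10 of 11 acinar markers (median 0.81), 5 of 10 markers of stomach and Brunner gland (median 0.84) and 3 of 8 adipocyte markers (median 0.34) were higher at HF 3 h. None of the 10 smooth muscle, 13 enterocyte and 3 erythrocyte markers was called there, and 1 of 8 B and T cell markers was lower. The summed acinar signal was 16.86 to 16.87 on the HF 3 h arrays and 16.13 to 16.15 on the LF 3 h arrays in log2 units, with no acinar marker under 6, and its part in the member values was not tested.

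**Figure D4:**
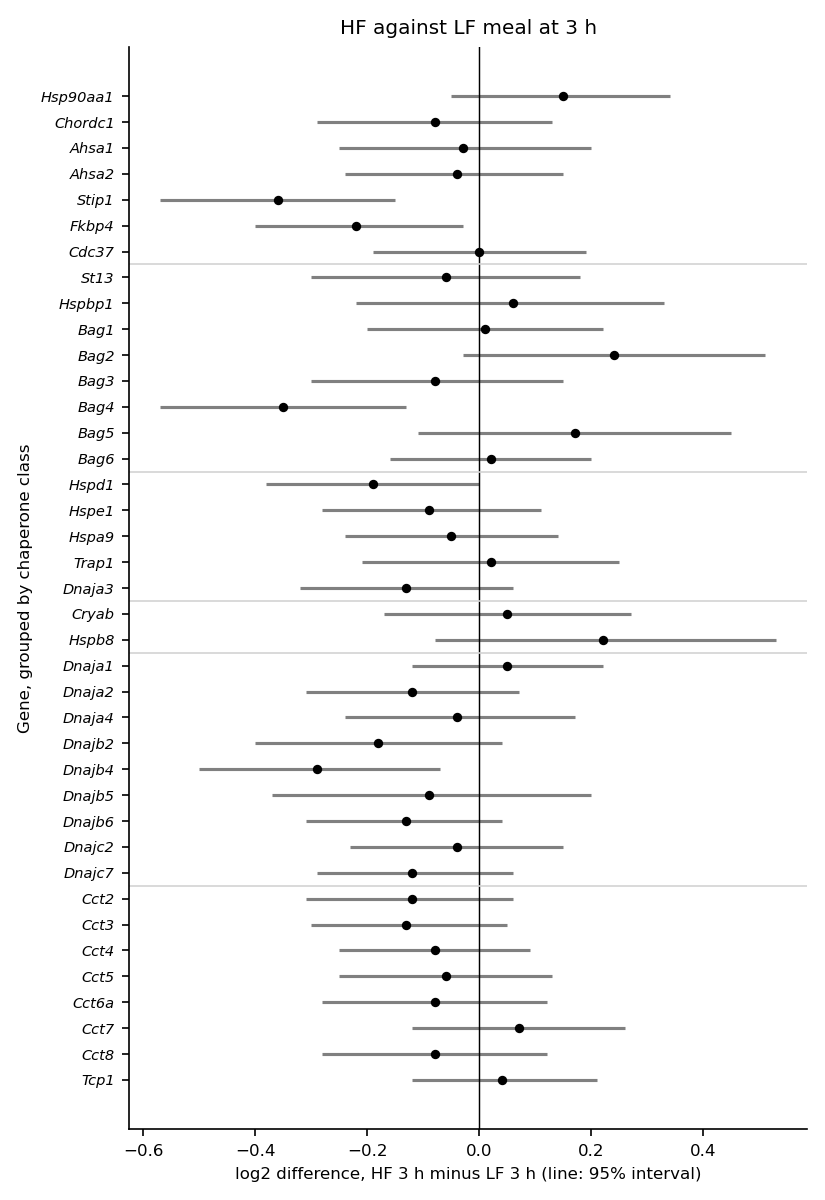
Difference between the HF 3 h and the LF 3 h pool in log2 units (point) with its 95% interval (line) for the 39 measured members, grouped by class from HSP90 at the top to CCT at the bottom. All differences lie between -0.36 and 0.24, with 12 of 39 above 0, and none had an adjusted p under 0.05.

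The pools of 3 h were also compared with those of 30 min after the same meal, which uses no fasting array. These 2 comparisons were added after the data had been seen. After the HF meal 7 members were higher and 3 lower at 3 h than at 30 min (3.08% and 5.87% of all genes), and after the LF meal 10 were higher and 0 lower (1.99% and 2.32%). At an unadjusted p under 0.05, the HF pools gave 10 higher and 5 lower members and the LF pools 16 higher and 1 lower. Hsp90aa1, Chordc1, Ahsa1, Stip1 and Dnaja1 were higher after both meals, 5 of the 10 called in each, and the comparisons have no array in common. Hsp90aa1 gave 0.74 ± 0.093 after HF and 0.76 ± 0.093 after LF (adjusted p 0.00024 and 0.00043). Dnaja1 gave 0.65 and 0.62 (adjusted p 0.00021 and 0.00065). Called after the HF meal only were Bag3 (0.41) and Bag5 (0.60) as higher and Trap1 (-0.44), Bag4 (-0.36) and Dnajb6 (-0.31) as lower. In the same order the LF meal gave 0.29, 0.21, -0.23, -0.15 and -0.19, not called. Called after the LF meal only were Fkbp4 (0.54), Hspe1 (0.46), Dnajb2 (0.42), Hspd1 (0.39) and Cct3 (0.34). For these the HF meal gave 0.29, 0.21, 0.35, 0.07 and 0.09, not called. Whether the change over time differed between the meals was not tested. With either array of the compared pools left out, the HF count fell to 4 or 5, and the LF count to 5 or 6. Calls of Hsp90aa1, Chordc1 and Dnaja1 held in all 14 fits with an array left out after both meals, and those of Ahsa1 and Stip1 after the LF meal. Between HF 3 h and HF 30 min 10 of 11 acinar markers were higher (median 1.47) and 10 of 10 markers of stomach and Brunner gland lower (median -1.16). Between LF 3 h and LF 30 min 1 of 11 and 6 of 10 were lower (medians -0.17 and -1.90), and so were 4 of 10 smooth muscle markers (median -0.26). Of the smooth muscle markers 2 of 10 were also lower between HF 3 h and HF 30 min (median -0.19), and 3 of 8 adipocyte markers were higher (median 0.31). The part of these tissues in the member counts was not tested.

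Among related genes outside the list, the HSP70 and HSP110 genes had the largest changes. The list of HSP70, HSP110 and heat shock factor genes also held Hspb1, a small heat shock protein, and Hsbp1, a heat shock factor binding protein. Of its 12 measured genes, 2, 3 and 6 were higher at 30 min, 1 h and 3 h on the HF meal. On the LF meal 3, 3 and 7 were higher. Hspa1b, an inducible HSP70, stood at 3.31 and 3.64 and Hsph1, an HSP110, at 2.47 and 2.67 at HF 3 h and LF 3 h. Of 19 other HSP90 co-chaperones, 1 was higher and 1 lower at HF 3 h, and 2 were higher and 1 lower at LF 3 h. Over all genes, 2.97% were higher and 3.7% lower at HF 3 h, and 3.13% and 2.28% at LF 3 h. Fkbp5, an immunophilin that competes with Fkbp4 in steroid receptor complexes, fell by 0.76 at HF 3 h (adjusted p 0.00015) and by 0.34 at LF 3 h (adjusted p 0.043). Between the meals it was higher at HF 30 min than at LF 30 min (0.56, adjusted p 0.012) and lower at HF 3 h than at LF 3 h (-0.42, adjusted p 0.031). Fnip2, which slows the HSP90 ATPase and was dim in fasting (5.758), stood at 0.05 at HF 3 h and rose by 0.53 at LF 3 h (adjusted p 0.0072), a difference between the meals of -0.48 (adjusted p 0.029).

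Of 23 other J-domain proteins, Dnajb1, the HSP40 induced with HSP70, was the only one higher at each time after both meals. It rose by 0.42, 0.73 and 0.31 at 30 min, 1 h and 3 h on the HF meal and by 0.60, 0.97 and 0.41 on the LF meal. Its highest mean was at 1 h on both meals. So was that of Bag3, whose HF means at 1 h and 3 h were close (7.784 and 7.773), while that of Dnaja1 was at 3 h. The counts of this list at 3 h were 1 higher and 2 lower after HF and 1 higher and 1 lower after LF. For this list and those below, the shares of all genes at 3 h were 2.97% higher and 3.7% lower after HF. After LF they were 3.13% and 2.28%. Dnajb14, a J-domain protein of the endoplasmic reticulum membrane, fell by 0.62 at HF 3 h (adjusted p 0.0093) and stood at -0.02 at LF 3 h, a difference between the meals of -0.60 (adjusted p 0.03). Of 16 prefoldin subunits and CCT helpers, only Uri1, a prefoldin-like protein, was called at 3 h, with a fall of -0.58 at HF 3 h and -0.43 at LF 3 h (adjusted p 0.0022 and 0.019). Of 15 other genes of mitochondrial import and quality control, Clpx, the unfoldase of the matrix protease, rose by 0.55 at HF 3 h (adjusted p 0.012) and stood at 0.23 at LF 3 h, and Grpel1, the exchange factor of Hspa9, stood at 0.28 at HF 3 h and rose by 0.40 at LF 3 h (adjusted p 0.037). The list that holds the HSP70 genes had medians at 3 h of 0.39 after HF and 0.60 after LF. Those of the other lists lay between -0.11 and 0.03 after the HF meal and between -0.04 and 0.07 after the LF meal.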

How the data were processed

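The data are 14 Affymetrix mouse expression arrays. The deposited values are probe set intensities on the log2 scale, which the authors background-subtracted and normalised by Robust Multiarray Analysis. The log base was taken from that method. The values were used without further scaling, and detection calls were not used here, so a mean log2 value under 6 was taken as dim. Arrays have no read depth, and their number limits the precision.

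Of 45101 probe sets, 64 controls were set aside and 45037 tested. The annotation used here gave 1 gene for 34945, several for 932 and none for 9160, and 34741 were brought to current symbols by Entrez ID. The brightest single-gene probe set stood for a gene. A model with 1 mean per pool was fitted with limma 3.58.1 (R 4.3.3), with 7 residual and 6.404 prior degrees of freedom, and p-values were adjusted by Benjamini-Hochberg over all tested probe sets. A member was called at an adjusted p under 0.05. The procedure was tested on simulated data. Members, classes, lists and marker lists were chosen with earlier results of these data known. Members given array by array were the 3 per class with the largest change among those called against fasting, and at most 2 genes were named in each related list. Promoter windows were searched by symbol in RefSeq (GRCm38.p6). Figures were drawn with matplotlib 3.10.9 (Python 3.11.15). Alternatives were fold minimums, a filter on dim probe sets, another variance model, median scaling, fits of 2 pools, the replicate number as a block, other choices of probe set, and each array left out.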

Additional observations from a re-analysis of the deposited data

How the results depend on the processing

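Counts of called members followed the rule and the set of probe sets tested. In the order F test, HF 1 h, HF 3 h, LF 1 h and LF 3 h against fasting, and 3 h against 30 min after HF and LF, 12, 3, 11, 5, 13, 10 and 10 members were called. With a minimum of 1.5-fold these were 7, 1, 5, 1, 6, 4 and 5, and with the 2-fold minimum of the methods 2, 0, 1, 0, 1, 0 and 0. Without probe sets under 6 in every pool they were 19 (F test), 7 (HF 1 h), 18 (HF 3 h) and 9 (LF 1 h), with 3 at HF 30 min, 1 at LF 30 min and 3 between the meals at 3 h, where fewer probe sets enter the adjustment. A trended, robust variance prior gave 20, 7, 18 and 10, with 2, 1 and 2; the cause was not tested. With array medians subtracted, HF 1 h gave 1. Fits of only the 2 pools compared gave 0 at HF 1 h, 1 at LF 1 h, and 4 (HF) and 6 (LF) for 3 h against 30 min, with fewer samples. The mean over the probe sets of a gene gave 5 at HF 1 h, 1 at HF 30 min and 1 between the meals at 3 h.

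Without probe sets that may match several transcripts (36 members left), Cct3 turned to -0.03 at LF 3 h against fasting (adjusted p 0.95) and to -0.27 against LF 30 min (adjusted p 0.32), read from a dim set. With each array left out in turn, a pool's lone array being assumed to vary like the others, counts ran from 0 to 3 at HF 1 h, 4 to 12 at HF 3 h, 1 to 5 at LF 1 h, 7 to 14 at LF 3 h, 4 to 10 (HF) and 5 to 10 (LF) for 3 h against 30 min, and 8 to 12 by the F test. With the replicate number as a block, 10 members were called by the F test, 2 at HF 1 h, 11 at HF 3 h, 5 at LF 1 h and 14 at LF 3 h. The numbers do not pair the arrays: over 21 pairs of pools the deviations of same-numbered arrays correlated at -0.19 to 0.15 (median -0.00097), with 2 over 0.1. Fold changes were also followed for the members given array by array, in the comparisons where each was called, over these settings except the fold minimums. Of these, 2 reversed, both in the fits without probe sets that may match several transcripts. The rest kept direction but not always the call. In fits of only the 2 pools compared, 25 kept the call and 16 did not. Each pool is 1 RNA on 2 arrays, so the spread between mice limits every statement above and was not measured.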
